A study of Mus musculus with 8 samples.

Results

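The Rad21 peaks described here lay in 6 windows around the B cell identity transcription factor genes Pax5, Ebf1, Bach2, Bcl6, Irf4 and Prdm1. Members were all peaks that overlapped one of these mm9 windows, which were set by position and not by any peak value. Peaks of the 8 deposited lists that overlapped by at least 1 bp were merged into regions, and 152 of the 64772 regions of the series fell in the windows. They were built from 451 of 199072 peaks, or 0.227% of all peaks and between 0.163% and 0.260% of a single list.

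Rad21 is the kleisin subunit of cohesin, the ring complex that extrudes chromatin loops and is halted at sites bound by CTCF, so that Rad21 ChIP-seq peaks mostly mark loop anchors and positions where cohesin stalls or is loaded. Ebf1 and Pax5 specify and maintain the B cell program, Bach2 and Bcl6 are repressors that keep activated B cells from becoming plasma cells, and Irf4 and Prdm1 (which encodes Blimp-1) drive plasma cell differentiation. Cohesin and CTCF at such genes are known to bring distant enhancers and promoters into contact or to keep them apart.

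The 8 libraries came from CH12F3 cells, a mouse B lymphoma line able to switch to IgA, after 72 h of stimulation with anti-CD40 together with IL4 and TGF-β. Every genotype was AID-/-, without the deaminase that initiates class switching. The study asks how the configuration of Igh chromatin bears on the orientation in which broken switch regions are joined. There were 4 genotypes with 2 libraries each. PS_Ia and PS_Ca lines carried a deletion between the Sγ3 and Sα switch regions that left only a part of each. FS_Ia lines carried a deletion from Cγ3 to Cα and FS_Ca lines one from Cγ3 to Iα, both with full-length Sγ3 and Sα. Ia lines were made in aInv cells, and Ca lines in cells with a deletion of the non-coding IgH allele named VH-3'BCEs. Each genotype is an engineered line of 1 tumour cell line, and the labels do not say whether its 2 libraries came from separate cultures or clones, so the p-values below measure the spread between these libraries, which may be technical. The engineered allele is on chromosome 12 and none of the 6 windows is. Peak lists hold no expression values, so the levels of the 6 genes and of B cell markers were not analysed here.

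Lists held 20582 and 47461 peaks in PS_Ia replicates 1 and 2, 30982 and 11288 in PS_Ca, 13840 and 26157 in FS_Ia, and 17212 and 31550 in FS_Ca. Read depth was not given for any library. Summit heights, recovered from the fold values of each list, started at 3 to 5 fragments. The 4 FS libraries share a peak-name prefix, PS_Ia and PS_Ca replicate 1 share another and PS_Ia and PS_Ca replicate 2 one more, so that this set and the length of the switch regions cannot be told apart.

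Across the 6 windows, 3050 kb in all, the merged regions were denser than on the numbered chromosomes as a whole, at 49.8 against 26.2 regions per Mb. Counted list by list, the windows held 1.57 and 2.04 times the genome-wide density of peaks in PS_Ia replicates 1 and 2, 1.81 and 1.52 times in PS_Ca, 1.64 and 1.94 times in FS_Ia and 1.33 and 2.08 times in FS_Ca. All 8 libraries therefore had more peaks per Mb in the windows than on the numbered chromosomes. The windows were chosen around genes, and gene-rich stretches were not compared separately.

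Recurrence over libraries was close to the background for regions of all 8 libraries and of 1 library, and less so in between. Of the 152 regions, 14 were found in all 8 libraries (9.21%), where 10.4% of all regions of the series were. Another 81 were found in 1 library only (53.3%, background 52.6%), of which PS_Ia replicate 2, with the longest list, gave 41. Over the series that library gave 17181 of the 34039 regions found in 1 library, a similar share. The remaining 57 of the 152 were found in 2 to 7 libraries. Regions of 2 and of 4 libraries made up 17.1% and 7.24%, above backgrounds of 12.5% and 4.87%. Those of 3, 5, 6 and 7 libraries made up 5.26%, 2.63%, 2.63% and 2.63%, below backgrounds of 6.70%, 4.23%, 3.99% and 4.79%. These shares were not tested. Regions of all 8 libraries occurred at 4.59 per Mb in the windows and at 2.77 per Mb on the numbered chromosomes.

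Column 7 of the lists is the authors' fold enrichment at the summit over the expected background, and ranks are given below as percentiles within a list, with 0 for the highest fold and 100 for the lowest. The 14 regions of all 8 libraries had a median mean percentile of 23.3, against 22.6 for the 6747 such regions of the series. Their median fold was 10.9, against 10.3 in the series. They were wider, with a median of 2540 bp against 2022 bp, and ranged from 1119 to 5447 bp. Single-library regions ranked low in the windows and in the series alike, with a median percentile of 75.5 in both and a median fold of 4.30 in the windows and 4.51 in the series.

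**Figure D1:**
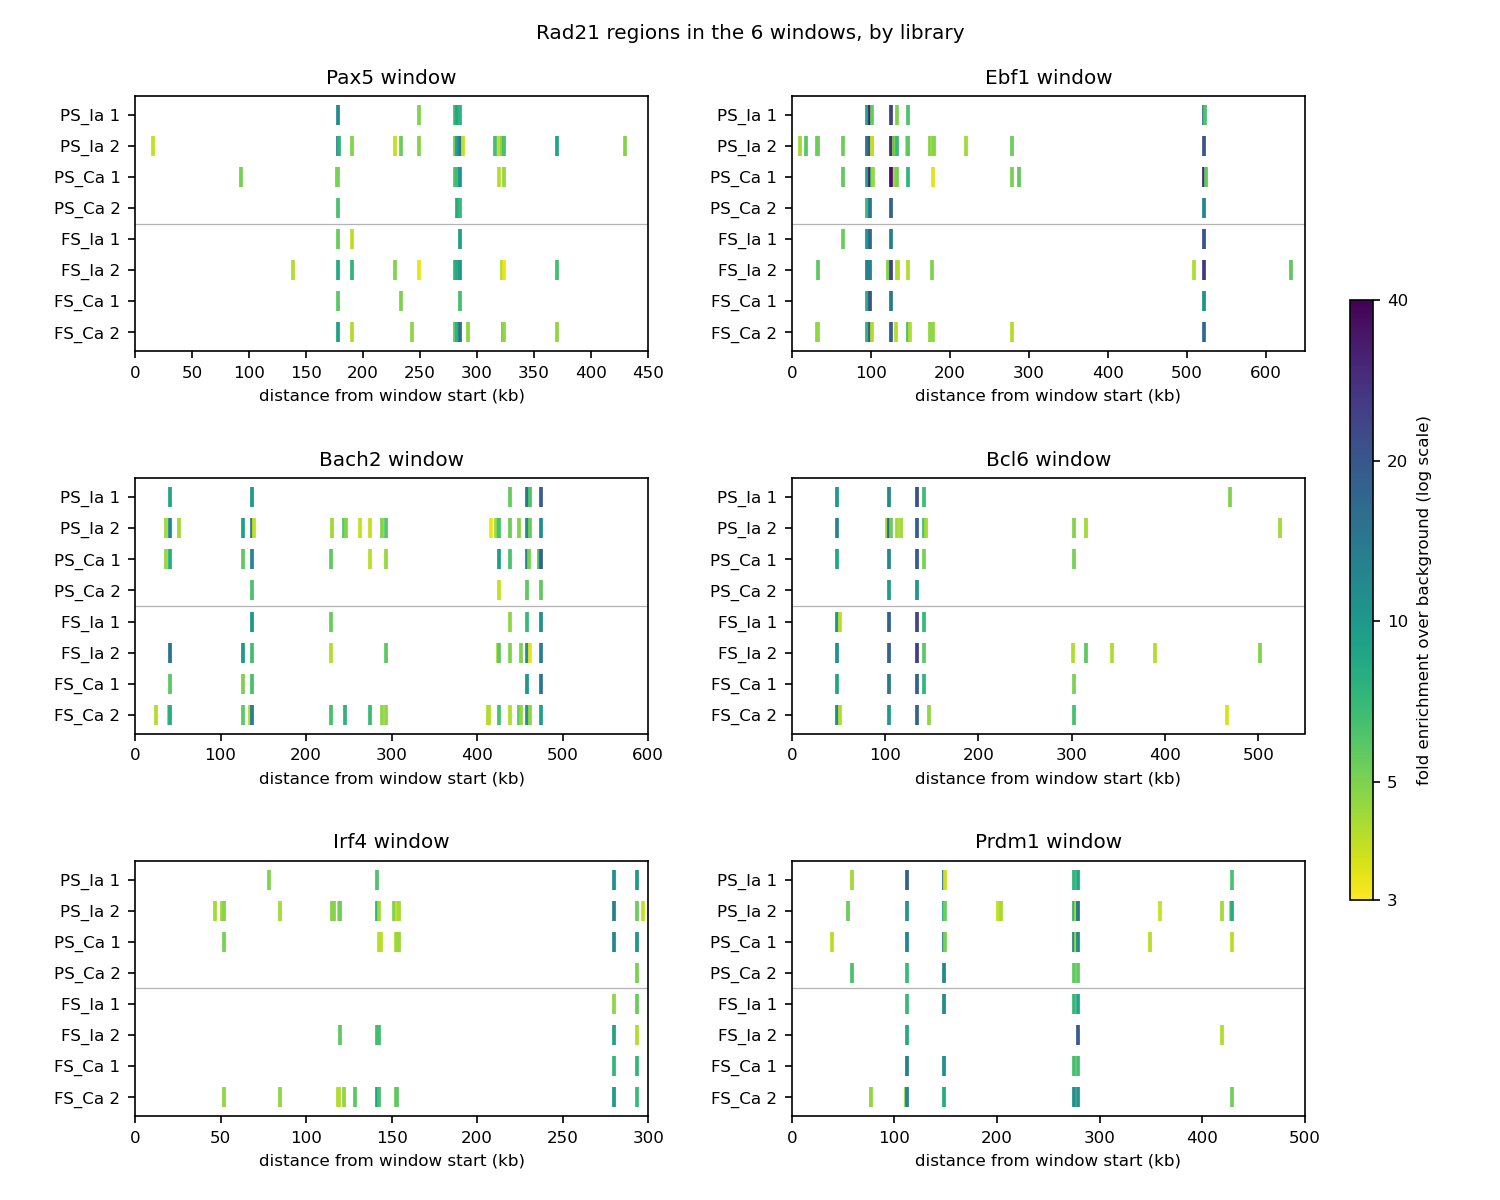
Rad21 regions in each of the 6 windows, 1 row per library and 1 tick per region with a peak in that library, by distance from the window start in kb (horizontal axis) and coloured by the authors' fold on a log scale. The 14 regions found in all 8 libraries run through all rows as columns of mostly dark ticks, and no library has a tick in the 221 kb gap of the Ebf1 window.

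Ebf1 encodes the early B cell factor that acts with Pax5 to commit progenitors to the B lineage. Its window (chr11:44300000-44950000, 650 kb) held 34 regions, 4 of them in all 8 libraries, and had the best-ranked sites of the 6 windows. Regions are numbered within a window from its low coordinate. In the RefSeq gene order of the GRCm38.p6 assembly, Ebf1 lies between Rnf145 and Clint1; no gene was assigned to a region, since no annotation of the mm9 build was used.

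Region 12 of Ebf1 (chr11:44422686-44427872) had folds of 24.0 and 28.5 in PS_Ia replicates 1 and 2, 35.6 and 17.6 in PS_Ca, 13.2 and 24.5 in FS_Ia, and 13.6 and 18.5 in FS_Ca. It was highest in PS_Ca replicate 1 and lowest in FS_Ia replicate 1, and its mean percentile of 2.50 was the best of all regions in the windows. Summit heights were 38, 52, 62 and 27 fragments in the PS libraries, against 16, 29, 18 and 31 in the FS libraries. The exact Poisson 95% interval, which covers counting error only, was 47.5 to 79.5 at the highest of these and 9.15 to 26.0 at the lowest. Heights are not scaled between lists. The expected background was 0.772 in PS_Ca replicate 1 and 0.293 in FS_Ia replicate 1, so these intervals do not compare the libraries. Summits of the 8 libraries lay within 128 bp of each other.

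Region 7 (chr11:44398950-44400068), the narrowest of the 14 at 1119 bp, had folds of 31.4 and 21.5 in PS_Ia, 31.6 and 14.5 in PS_Ca, 17.0 and 13.1 in FS_Ia, and 20.8 and 19.1 in FS_Ca. The 2 highest values were PS libraries, and the PS and FS ranges overlapped. Its mean percentile was 2.59 and its summits lay within 99 bp. Region 31 (chr11:44820611-44823427) had folds of 15.4 and 20.4 in PS_Ia, 29.3 and 12.0 in PS_Ca, 20.9 and 26.2 in FS_Ia, and 10.8 and 16.2 in FS_Ca, with a mean percentile of 4.46 and summits within 70 bp. Again PS_Ca replicate 1 was highest, while FS_Ca replicate 1 was lowest. Region 6 (chr11:44394144-44396458) was weaker, with a mean percentile of 25.5.

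Spacing in the Ebf1 window was uneven. Regions 6 and 7 were 2.49 kb apart, region 12 followed after 22.6 kb, and region 31 only after a further 393 kb. A stretch of 221 kb (chr11:44588676-44809582) held no peak in any of the 8 libraries, the longest such gap inside the regions of any of the 6 windows. Across the numbered chromosomes the gap between neighbouring regions of all 8 libraries had a median of 127 kb and quartiles of 45.7 and 302 kb. Regions 6 and 7 belonged to a chain of 5 regions over 8.45 kb, and region 12 to one of 7 regions over 12.8 kb, where a chain is at least 3 regions with gaps under 5 kb.

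Pax5 encodes the paired-box factor that activates B cell genes and represses those of other lineages. Pax5 itself, not its window, lies between Melk and Zcchc7 in the gene order. The window (chr4:44400000-44850000, 450 kb) held 25 regions, of which 2 were in all 8 libraries and 13 in a single one. Region 14 (chr4:44683837-44686377) had folds of 7.40 and 14 in PS_Ia, 10.2 and 6.93 in PS_Ca, 9.28 and 9.81 in FS_Ia, and 6.46 and 15 in FS_Ca. Region 5 (chr4:44577133-44578480) had folds of 11.7 and 12.9 in PS_Ia, 5.08 and 6.30 in PS_Ca, 5.42 and 8.18 in FS_Ia, and 5.74 and 9.24 in FS_Ca. At region 5 both PS_Ia libraries lay above all 6 others, at summit heights of 18 and 23 fragments against 6 to 15, a pattern seen after its values were known and not tested. On the relative height scale, which is explained with the Bcl6 values, both PS_Ia libraries were above the other 6 at 3.11% of the 6747 regions of all 8 libraries, and at 1 of the 14 in the windows. The mean percentiles were 27.2 for region 14 and 42.0 for region 5, weaker ranks than those of the 3 leading Ebf1 regions.

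The 2 shared Pax5 regions were 105 kb apart. Next to region 14 lay region 13 (chr4:44681819-44683713), found in 6 libraries and missing from FS_Ia replicate 1 and FS_Ca replicate 1, and both belonged to a chain of 5 regions over 12.1 kb. A chain of 7 regions over 8.57 kb (chr4:44715721-44724293) had no region in more than 4 libraries. PS_Ia replicate 2 had a peak in 6 of these 7 regions and PS_Ca replicate 1, FS_Ia replicate 2 and FS_Ca replicate 2 in 2 each, while the other 4 libraries had none. The 4 libraries with peaks there had the 4 longest lists.

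Bach2 encodes a repressor that holds back Prdm1 and is required for class switching. Bach2 itself lies between Map3k7 and Gja10 in the gene order. The window (chr4:32200000-32800000, 600 kb) held 32 regions, 3 of them in all 8 libraries. Region 32 (chr4:32673097-32675634) had folds of 18.5 and 11.3 in PS_Ia, 18.1 and 5.67 in PS_Ca, 10.8 and 13.1 in FS_Ia, and 14.3 and 9.24 in FS_Ca. Region 28 (chr4:32656806-32660399) had folds of 14.2 and 11.3 in PS_Ia, 12.4 and 5.67 in PS_Ca, 6.96 and 10.6 in FS_Ia, and 10.0 and 10.4 in FS_Ca. Both were lowest in PS_Ca replicate 2, the shortest list. At region 32 the PS_Ia range overlapped with those of the 3 other genotypes. At region 28 both PS_Ia folds were above the 4 FS folds but not above both PS_Ca folds. On the relative height scale, which is explained with the Bcl6 values, PS_Ia and FS overlapped at region 28. PS_Ia replicate 2 stood at 1.02 there and FS_Ca replicate 1 at 1.12. Region 8 (chr4:32334648-32338050) had folds of 9.86 and 13.4 in PS_Ia, 11.9 and 6.30 in PS_Ca, 10.1 and 6.54 in FS_Ia, and 6.46 and 13.3 in FS_Ca.

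The mean percentiles of these 3 Bach2 regions were 17.4, 25.6 and 27.7. Summits of region 8 spread over 1624 bp, against 132 bp for region 32 and 306 bp for region 28. The wide spread came from 1 library, FS_Ia replicate 2, with its summit at chr4:32336945. All other libraries had their region 8 summit between chr4:32335321 and chr4:32335530. Regions 28 and 32 were 12.7 kb apart, and region 8 lay 319 kb before them. In between, 119 kb (chr4:32493573-32612869) held no peak in any library. Of the 22 regions found in at least 6 libraries in the 6 windows, the Bach2 window had 5. These 22 were out of 152 regions in the windows, and over the series 12433 of 64772 regions were found in at least 6 libraries.

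Bcl6 encodes the zinc-finger repressor that directs the germinal centre program. Bcl6 itself lies between Rtp2 and Lpp in the gene order. The window (chr16:23850000-24400000, 550 kb) held 20 regions, 2 of them in all 8 libraries. Region 8 (chr16:23981307-23986753), the widest of the 14 at 5447 bp, had folds of 21.0 and 18.8 in PS_Ia, 19.2 and 10.1 in PS_Ca, 23.2 and 24.5 in FS_Ia, and 17.9 and 17.3 in FS_Ca, with a mean percentile of 3.34. Region 4 (chr16:23952520-23955016) had folds of 11.7 and 17.2 in PS_Ia, 11.9 and 9.45 in PS_Ca, 17.8 and 18 in FS_Ia, and 14.3 and 9.82 in FS_Ca, with a mean percentile of 9.93. At both regions the FS_Ia folds were the 2 highest, while their summit heights of 29 and 29, and of 22 and 21 fragments were within the range of the other libraries.

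The 2 shared Bcl6 regions were 26.3 kb apart, and a stretch of 155 kb (chr16:23996718-24151220) after them held no peak in any library. Region 1 (chr16:23897178-23899909) was found in 7 libraries and missing from PS_Ca replicate 2, and region 9 (chr16:23991043-23992693) in 6, missing from PS_Ca replicate 2 and FS_Ca replicate 2.

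The Bcl6 values have to be read beside the level of chromosome 16. Over the 259 regions of chromosome 16 found in all 8 libraries, the median relative height, taken against the other numbered chromosomes of the same library, was 1.07 and 1.10 in PS_Ia, 0.801 and 0.828 in PS_Ca, 1.06 and 1.06 in FS_Ia, and 1.06 and 1.08 in FS_Ca. Both PS_Ca libraries were thus lower in this median over the chromosome's regions than the other 6, which lay close together. Whether the lower level covered all of the chromosome or a part of it was not examined. Chromosome 16 held 3.10% and 2.81% of the peaks in PS_Ca, against 4.68% to 5.67% in the other libraries. On chromosomes 4, 10, 11 and 13, which hold the other windows, the level lay between 0.875 and 1.09 in every library.

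Relative height is the fold divided by its geometric mean over the 8 libraries and by the library's own median. Its median over the 2 shared Bcl6 regions was 0.985 and 1.03 in PS_Ia, 0.780 and 0.838 in PS_Ca, 1.45 and 1.18 in FS_Ia, and 1.12 and 0.770 in FS_Ca. Divided by the chromosome 16 level it was 0.919 and 0.936 in PS_Ia, 0.975 and 1.01 in PS_Ca, 1.38 and 1.12 in FS_Ia, and 1.05 and 0.713 in FS_Ca. FS_Ca replicate 2 was the lowest on both scales, and the PS_Ca libraries lay inside the range of the others on both. The division put both PS_Ca libraries above both PS_Ia libraries, which they were below without it. Of the 168 regions on chromosome 16 that were found in 7 libraries, 143 (85.1%) were missing from PS_Ca replicate 2, as Bcl6 region 1 was, against 1747 of 3100 (56.4%) over the series.

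**Figure D2:**
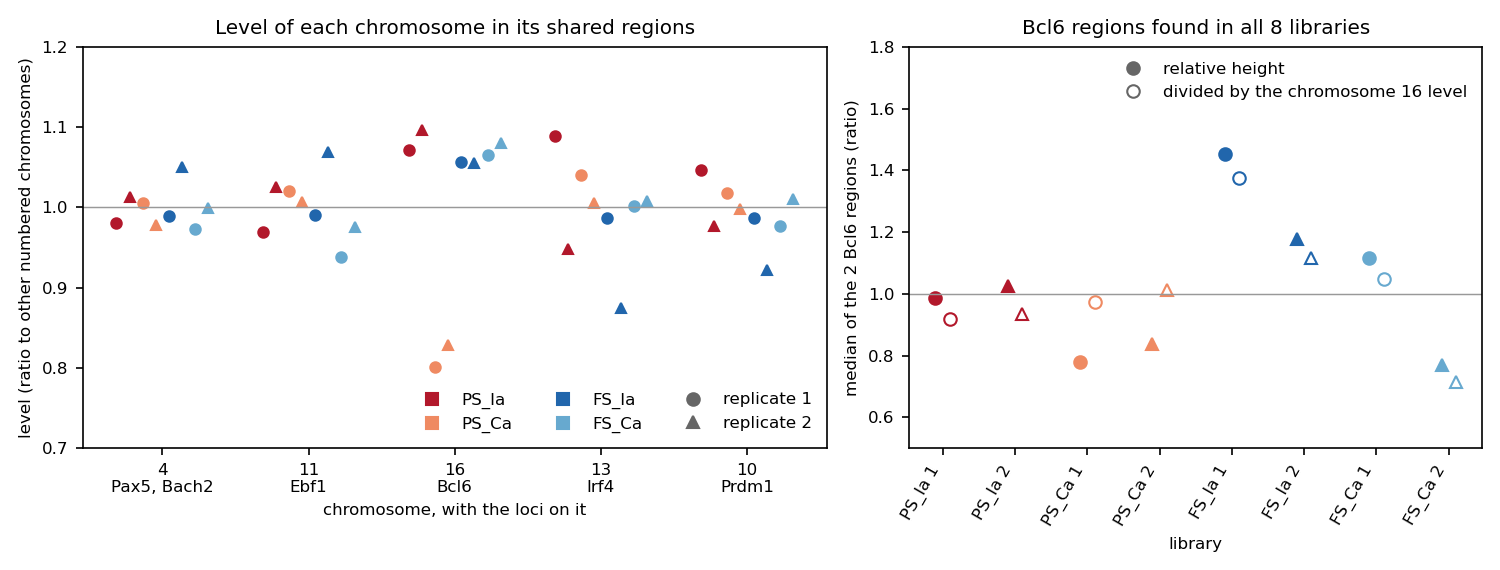
Left, level of each chromosome that holds a window, 1 point per library, as the ratio of its shared regions' median relative height to that of the other numbered chromosomes, on an axis that starts above 0. On chromosome 16 the PS_Ca libraries stand at 0.801 and 0.828 and the other 6 between 1.06 and 1.10; right, the median relative height of the 2 shared Bcl6 regions in each library before (filled) and after (open) division by that level, where both PS_Ca libraries move to 0.975 and 1.01.

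Irf4 encodes an interferon regulatory factor needed for class switching and plasma cell formation. Irf4 itself lies between Dusp22 and Exoc2 in the gene order. The window (chr13:30700000-31000000, 300 kb) was the shortest and, in regions merged over the 8 lists, the densest, with 23 regions or 76.7 per Mb. By single list the density ran from 3.33 peaks per Mb in PS_Ca replicate 2, the shortest list, to 63.3 in PS_Ia replicate 2, the longest. In PS_Ca replicate 2 it was below the 4.30 peaks per Mb of the numbered chromosomes. The Irf4 window had only 1 region in all 8 libraries. That was region 22 (chr13:30992740-30994599), with folds of 9.86 and 5.37 in PS_Ia, 10.2 and 5.04 in PS_Ca, 5.42 and 4.09 in FS_Ia, and 7.17 and 6.93 in FS_Ca. Its mean percentile of 51.8 was the weakest of the 14, and its lowest summit, in FS_Ia replicate 2, had 4 fragments with an exact Poisson 95% interval of 1.09 to 10.2. Region 21 (chr13:30979201-30981345) ranked better in most lists but had no peak in PS_Ca replicate 2.

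At Irf4 region 21 the fold was 11.1 and 12.9 in PS_Ia, 11.9 in PS_Ca replicate 1, 4.64 and 8.99 in FS_Ia, and 7.17 and 9.82 in FS_Ca. It was highest in PS_Ia replicate 2 and lowest in FS_Ia replicate 1. Regions 21 and 22 lay at the high-coordinate end of the window, after 124 kb (chr13:30854735-30979200) without a peak in any library. Before that gap the window held 4 chains, of 3, 6, 3 and 5 regions, in which no region was found in more than 4 libraries.

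Prdm1 encodes Blimp-1, the repressor that ends the B cell program in plasma cells. Prdm1 itself lies between Atg5 and Prep in the gene order. The window (chr10:43900000-44400000, 500 kb) held 18 regions, 2 of them in all 8 libraries. Region 6 (chr10:44011116-44012907) had folds of 18.5 and 10.2 in PS_Ia, 12.4 and 6.93 in PS_Ca, 6.96 and 8.18 in FS_Ia, and 12.9 and 12.7 in FS_Ca, with summits within 48 bp, the closest of the 14. Region 13 (chr10:44177648-44180664) had folds of 8.63 and 14.5 in PS_Ia, 11.3 and 5.67 in PS_Ca, 8.51 and 18.8 in FS_Ia, and 6.46 and 10.4 in FS_Ca. At region 6 both FS_Ca libraries were above both FS_Ia libraries, while at region 13 the highest value was FS_Ia replicate 2.

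Region 7 of Prdm1 (chr10:44047200-44049361) had folds of 14.8 and 9.13 in PS_Ia, 13 and 12 in PS_Ca, 11.6 in FS_Ia replicate 1, and 10.8 and 8.09 in FS_Ca. Its mean percentile over 7 libraries, 13.4, was better than that of either region found in all 8. Regions 7 and 11 (chr10:44174092-44175760) were both missing from FS_Ia replicate 2 and held by the other 7. On chromosome 10 that library lacked 25 of the 152 regions found in 7 libraries (16.4%), and over the series 368 of 3100 (11.9%). The 2 shared regions were 165 kb apart, and the longest gap without a peak was 70.3 kb, the shortest such longest gap of the 6 windows.

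Within the 6747 regions of all 8 libraries, the 14 varied about as much between libraries as the others. The relative height had a median ratio of highest to lowest library of 2.17 in the windows, with a range of 1.83 to 2.79, against 2.02 over the series. Ebf1 regions 7 and 12, Bcl6 region 8 and Ebf1 region 31 also ranked high among these shared regions alone, with median percentiles of 4.55, 4.41, 8.26 and 8.50. The other 10 lay between 23.7 and 90.7.

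At Ebf1 region 12 the relative height was 1.13 and 1.22 in PS_Ia and 1.39 and 1.14 in PS_Ca, against 0.711 and 1.04 in FS_Ia and 0.716 and 0.818 in FS_Ca. All 4 PS libraries were above all 4 FS libraries, which was so for 1.39% of all such regions in that direction. The 4 PS and 4 FS folds themselves overlapped. No other of the 14 regions was without overlap between PS and FS or between Ia and Ca, in either direction, where the background was 1.54% for FS above PS and 1.16% for each direction of Ia and Ca. By single genotype, both FS_Ia libraries were above the other 6 at 2 of the 14 regions, Bcl6 regions 4 and 8 (background 6.34%), and both PS_Ia libraries at Pax5 region 5. For PS_Ca and FS_Ca the count was 0, with backgrounds of 2.62% and 2.07%.

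**Figure D3:**
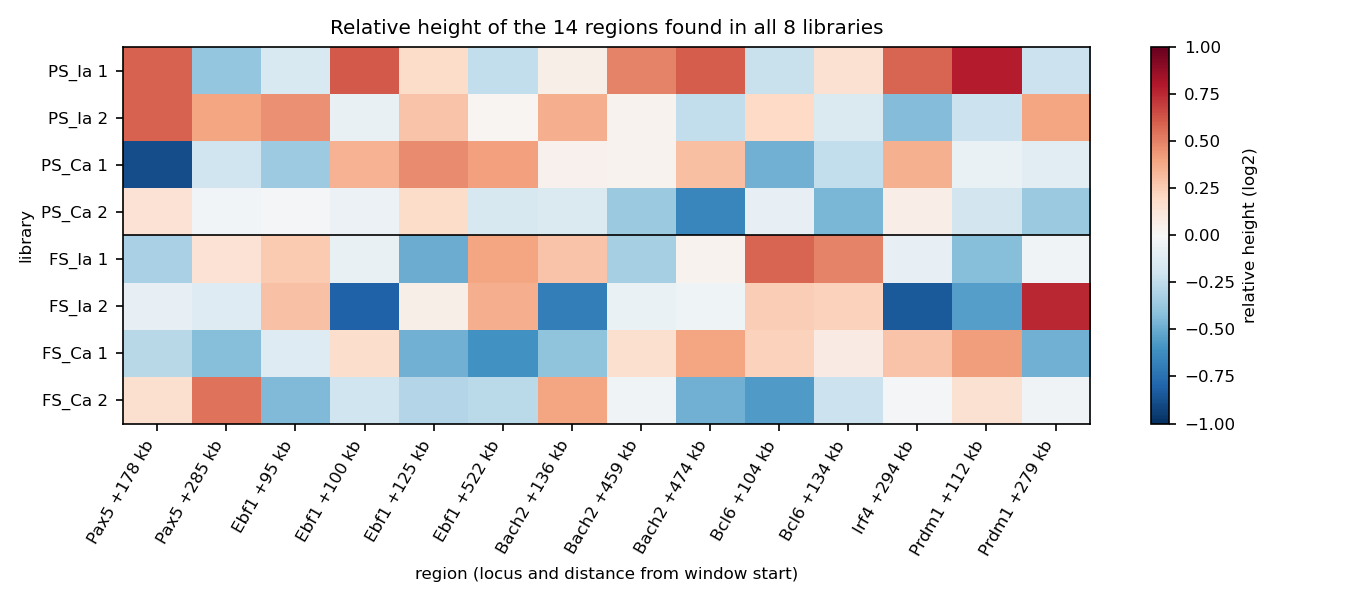
Relative height on a log2 scale (colour) of the 14 regions found in all 8 libraries, with libraries in rows and regions in columns, labelled by window and distance from the window start in kb. Ebf1 region 12 (+125 kb) is above 0 in all 4 PS rows, and both Bcl6 columns are highest in FS_Ia replicate 1.

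The numbers of peaks in the windows differed widely between the 2 libraries of each genotype. The 6 windows together held 40 and 121 peaks in PS_Ia, 69 and 20 in PS_Ca, 28 and 63 in FS_Ia, and 28 and 82 in FS_Ca. They followed the list lengths, with the most in PS_Ia replicate 2 and the fewest in PS_Ca replicate 2. Ia libraries averaged 63.0 ± 41.3 peaks and Ca libraries 49.8 ± 30.4 (SD, n = 4 each; difference 13.25, exact two-sided permutation p = 0.629, adjusted over 14 contrasts 0.831). PS libraries averaged 62.5 ± 43.9 peaks and FS libraries 50.2 ± 26.8 (SD, n = 4 each; difference 12.25, exact two-sided permutation p = 0.714, adjusted p = 0.831). The smallest p that 4 against 4 libraries allow is 0.0286.

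Direction was not stable either. Within the sets of libraries that share a peak-name prefix, the difference Ia minus Ca was -29 peaks for PS replicates 1 (40 against 69), 101 for PS replicates 2 (121 against 20) and -9.5 for the FS libraries (45.5 against 55). Per 10000 peaks of the list, the same differences were -2.84 for PS replicates 1 (19.4 against 22.3), 7.78 for PS replicates 2 (25.5 against 17.7) and 1.03 for the FS libraries (22.2 against 21.1). Without PS_Ia replicate 2, Ia minus Ca was -6.08 and PS minus FS was -7.25.

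Pax5 peaks numbered 5 and 19 in PS_Ia, 11 and 3 in PS_Ca, 3 and 11 in FS_Ia, and 3 and 10 in FS_Ca. Ebf1 peaks numbered 9 and 25 in PS_Ia, 17 and 4 in PS_Ca, 7 and 14 in FS_Ia, and 6 and 17 in FS_Ca. In both windows the 4 longest lists gave the 4 highest counts, and the ranges of the 4 genotypes overlapped. Bach2 peaks numbered 7 and 28 in PS_Ia, 17 and 4 in PS_Ca, 5 and 14 in FS_Ia, and 6 and 25 in FS_Ca. Irf4 peaks numbered 4 and 19 in PS_Ia, 8 and 1 in PS_Ca, 2 and 6 in FS_Ia, and 2 and 14 in FS_Ca, the widest relative spread of the 6 windows. The lowest unadjusted p of these 4 windows, over both contrasts, was 0.543 by the exact two-sided permutation test.

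Bcl6 peaks numbered 6 and 14 in PS_Ia, 6 and 3 in PS_Ca, 7 and 14 in FS_Ia, and 7 and 9 in FS_Ca. Ia libraries averaged 10.2 ± 4.35 peaks and Ca libraries 6.25 ± 2.5 (SD, n = 4 each; difference 4, exact two-sided permutation p = 0.257, adjusted p = 0.831). PS libraries averaged 7.25 ± 4.72 peaks and FS libraries 9.25 ± 3.30 (SD, n = 4 each; difference -2, exact two-sided permutation p = 0.486, adjusted p = 0.831). No library had fewer Bcl6 peaks than the PS_Ca libraries, with PS_Ia replicate 1 at the same 6 as PS_Ca replicate 1. As a share of a library's chromosome 16 peaks, Bcl6 peaks made up 0.581% and 0.520% in PS_Ia and 0.625% and 0.946% in PS_Ca. The shares were 1.07% and 1.14% in FS_Ia, and 0.846% and 0.509% in FS_Ca. On this scale the PS_Ca libraries lay within the range of the others. PS_Ca was also the genotype with a low level on chromosome 16, whose part in these counts was not tested. Within the prefix sets, Ia minus Ca was 0 for PS replicates 1, 11 for PS replicates 2 and 2.5 for the FS libraries. Per 10000 peaks of the list it was 0.979, 0.292 and 1.75 in the same 3 sets.

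Prdm1 peaks numbered 9 and 16 in PS_Ia, 10 and 5 in PS_Ca, 4 and 4 in FS_Ia, and 4 and 7 in FS_Ca. PS libraries averaged 10.0 ± 4.55 peaks and FS libraries 4.75 ± 1.5 (SD, n = 4 each; difference 5.25, exact two-sided permutation p = 0.0571, adjusted p = 0.8). The ranges overlapped, since PS_Ca replicate 2 had 5 and FS_Ca replicate 2 had 7.

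Scaled to 10000 peaks of its list, Prdm1 had 4.37 and 3.37 peaks in PS_Ia and 3.23 and 4.43 in PS_Ca, against 2.89 and 1.53 in FS_Ia and 2.32 and 2.22 in FS_Ca. On this scale no PS library overlapped with an FS library, at 3.85 ± 0.639 in PS and 2.24 ± 0.558 in FS (SD, n = 4 each; difference 1.61). The exact two-sided permutation p was 0.0286, the smallest possible, and 0.4 after adjustment over the 14 contrasts. Of 3949 windows of 500 kb with a peak, the 3237 on the numbered chromosomes with at least 8 peaks were compared. Among these, 0.649% had all 4 PS libraries above all 4 FS libraries and 1.36% the reverse. They were not matched to the Prdm1 window in peak number. None of the other 5 windows was without overlap on this scale, in either contrast (0.618% of the 3237 for Ia above Ca, 0.989% for Ca above Ia). In lists cut to the 11288 strongest peaks, the counts were 5, 5, 4 and 5 in PS and 4, 2, 4 and 4 in FS, and the groups touched. The level of chromosome 10 overlapped between PS and FS libraries, at 0.977 to 1.05 in PS and 0.922 to 1.01 in FS.

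**Figure D4:**
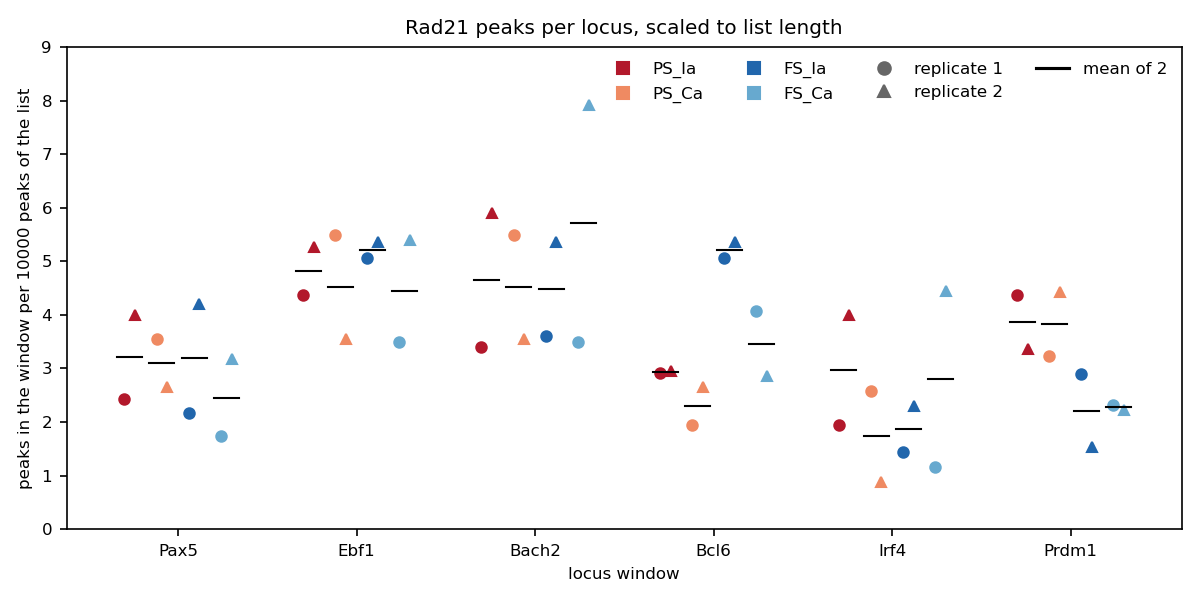
Peaks in each window per 10000 peaks of the list (vertical axis), 1 point per library, coloured by genotype, with a bar at the mean of the 2 libraries. At Prdm1 the PS libraries stand between 3.23 and 4.43 and the FS libraries between 1.53 and 2.89, while in the other 5 windows PS and FS libraries overlap.

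By presence, no region of the 6 windows fully separated Ia from Ca libraries or PS from FS libraries. Fisher's exact test over all 64772 regions called 0 after Benjamini-Hochberg adjustment, for Ia against Ca and for PS against FS, and 31 (0.0479%) at an unadjusted p of 0.05 or less in each. With 4 against 4 libraries the smallest Fisher p is 0.0286, so that the design could not give an adjusted call unless most regions reached it, and the 0 says nothing about any one region. In the windows 0 regions passed even unadjusted, and the lowest exact p was 0.143 in either contrast (adjusted 1). In the windows 0 regions were held by all 4 libraries of Ia, Ca, PS or FS and by none of the 4 others, where 0.0247%, 0.0232%, 0.0401% and 0.00772% of all regions were. The p of 0.143 belonged to Pax5 region 11 (chr4:44648386-44649234), found in 3 Ia libraries and no Ca library, and to Prdm1 region 8 (chr10:44049367-44049877), found in 3 PS libraries and no FS library. Only 0.005 kb, the shortest gap of the Prdm1 window, lay between region 8 and region 7, which 4 PS and 3 FS libraries held. Whether regions 7 and 8 are separate sites was not tested.

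Regions held by both libraries of a genotype and neither of another were counted beside the share over all regions. Their folds were not compared with those of such regions elsewhere. For PS_Ia and not PS_Ca there were 3, or 1.97% of the 152 regions beside 1.75% of all regions: Irf4 region 13 (chr13:30840377-30842054), Bach2 region 30 (chr4:32661044-32661933) and Pax5 region 11. Irf4 region 13 had folds of 6.16 and 7.52 in PS_Ia and was also found in FS_Ia replicate 2 at 6.54 and FS_Ca replicate 2 at 8.67. Bach2 region 30 had folds of 6.16 and 5.37 in PS_Ia, 3.27 in FS_Ia replicate 2 and 4.62 in FS_Ca replicate 2. Both were thus shared across orientations outside the PS lines.

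For PS_Ia and not FS_Ia there were also 3 regions, beside 4.04% of all regions, namely Prdm1 region 8, Prdm1 region 18 (chr10:44328650-44329556) and Ebf1 region 8 (chr11:44400224-44401798). Ebf1 region 8, next to the strong region 7, had folds of 5.55 and 6.98 in PS_Ia, 6.21 in PS_Ca replicate 1 and 4.04 in FS_Ca replicate 2. Prdm1 region 18 had folds of 6.16 and 8.06 in PS_Ia, 3.95 in PS_Ca replicate 1 and 5.20 in FS_Ca replicate 2. Prdm1 region 8, directly after the widely shared Prdm1 region 7, had folds of 3.70 and 5.37 in PS_Ia and 5.08 in PS_Ca replicate 1, at summits of 5, 9 and 8 fragments. None of the 3 was limited to PS_Ia.

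In the opposite directions there was 1 region for FS_Ia and not PS_Ia, Bach2 region 10 (chr4:32429151-32429865; background 0.279%), with folds of 5.42 and 4.09 in FS_Ia, 5.64 in PS_Ca replicate 1 and 6.35 in FS_Ca replicate 2. There was 1 for FS_Ca and not FS_Ia, Bcl6 region 13 (chr16:24151506-24152567; background 1.78%), with folds of 5.02 and 6.35 in FS_Ca, 4.83 in PS_Ia replicate 2 and 5.08 in PS_Ca replicate 1. The windows held 0 regions for PS_Ca and not PS_Ia (0.571%), FS_Ia and not FS_Ca (0.477%), PS_Ca and not FS_Ca (0.526%) and FS_Ca and not PS_Ca (0.692%). With 2 against 2 libraries the smallest possible p is 0.333, so these are counts without a test.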

How the data were processed

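The authors deposited a separate peak list for every library and none for pooled samples. The submitters' processing notes list MACS2 (2.2.7.1), Bowtie2 (2.4.4) and the mm9 build; their settings and any input control were not stated. The deposited columns hold the authors' score, the fold (a ratio over expected background), −log10 p and −log10 q, and the summit position. Fold values rose in equal steps within a list, so that heights, (fold over step) minus 1, were whole within 0.01 for all peaks. Such steps mean a single expected background for a whole list and no local scaling. It ran from 0.223 in FS_Ia replicate 2 to 0.862 in PS_Ia replicate 2. Heights are fragments, not depth, and duplicates may be among them.

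Peaks overlapping by at least 1 bp were merged. Percentiles rank folds within a list, with ties at their mid rank. Counts of peaks were tested with an exact permutation, two-sided, of 4 libraries against 4, adjusted by Benjamini-Hochberg over 14 contrasts, and presence by Fisher's exact test over all regions. Folds and relative heights were described without tests. Named were up to 3 best-ranked regions of all 8 libraries per window (with the best of the next class where there was 1), and regions of one genotype of a pair; the others, Ebf1 region 6, Pax5 region 13, Bcl6 regions 1 and 9, and Prdm1 regions 7 and 11 among them, were picked after their values were seen. The windows, lists and tests were chosen with earlier results of these data known. No mm9 genome was used, so sequences and gene positions are not given; gene order came from RefSeq (GRCm38.p6).

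Alternatives were lists cut to 11288 peaks, counts per 10000 peaks, a −log10 q minimum of 5 and summits ± 100 bp. Each library was also left out in turn, and same-numbered libraries were taken as pairs. Only the Bcl6 window was left out of the region counts, and the windows' own regions were left out of the chromosome levels. Values within prefix sets and crossed pairs were added after seeing the data. Scripts used scipy 1.17.1, pandas 2.3.3 and numpy 2.4.6 under Python 3.11.15 and were tested on simulated data.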

Additional observations from a re-analysis of the deposited data

Results flagged for a closer look

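Of 100 checks for a library far from the others in a group of 4, 3 found one, where chance alone flags about 1 in 20. Among the FS libraries, FS_Ca replicate 2 had 7 Prdm1 peaks and the other 3 had 4 each. FS_Ia replicate 2 had a chromosome 13 level of 0.875, against 0.987 to 1.01 in the other FS libraries. Among the PS libraries, PS_Ia replicate 1 had a relative height of 1.72 at Prdm1 region 6, against 0.863 to 0.955 in the others.

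Of 50 comparisons of an effect between 2 groups, 4 went in opposite directions in every library; none of these differences was tested. The chromosome 16 level, Ia minus Ca, was 0.270 in PS lines and -0.0162 in FS lines. The same level, PS minus FS, was 0.0284 in Ia lines and -0.258 in Ca lines. The relative height of Ebf1 region 31, PS minus FS, was -0.370 in Ia lines and 0.367 in Ca lines. At Prdm1 region 6 it was 0.578 in Ia lines and -0.307 in Ca lines.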

How the results depend on the processing

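The differences in peak numbers between genotypes were mostly small beside the spread of the libraries, and the direction of most depended on the settings. Bcl6 in both contrasts and Prdm1 in PS minus FS did not turn in any setting. Bcl6 Ia minus Ca was 0 within PS replicates 1. Of 160 alternative values that could turn, 125 kept the direction, 33 turned and 2 were 0. The 42 others, from the block, the crossed block and the rule on summits, have the reported differences by construction or had no peak that differed. The lowest adjusted p was 0.4. With a −log10 q of at least 5, Ia minus Ca was -0.25 peaks for Bach2 and -0.25 for Irf4, and PS minus FS was -0.25 for Bach2 and -1.75 for Irf4. In lists of equal length, Ia minus Ca was -0.5 for Bach2 and -0.25 for Prdm1, and PS minus FS was -0.25 for Ebf1, -0.5 for Bach2, -0.5 for Irf4 and -1 for the 6 windows. Per 10000 peaks, Ia minus Ca was -0.544 for Bach2 and -0.00912 for Prdm1, and PS minus FS was -0.153 for Ebf1, -0.511 for Bach2 and -0.414 for the 6 windows. Within prefix sets, Ia minus Ca in the 6 windows was -29 and -9.5. The cause of these changes was not tested.

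With each library left out in turn, Ia minus Ca ranged from -6.08 to 24.9 for the 6 windows, -0.417 to 4.92 for Pax5, -1 to 5 for Ebf1, -4.33 to 4.5 for Bach2, 2.75 to 5.42 for Bcl6, -2.25 to 4.08 for Irf4 and -0.833 to 3.17 for Prdm1. PS minus FS ranged from -7.25 to 26.4 for the 6 windows, -0.417 to 4.92 for Pax5, -1 to 6 for Ebf1, -3.17 to 5.67 for Bach2, -4.25 to -0.417 for Bcl6, -1.67 to 4.67 for Irf4 and 3.25 to 6.92 for Prdm1. Leaving out PS_Ia replicate 2 turned 11 of these 14 differences.

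Counts of regions moved with the lists. Regions of every library numbered 9 with a −log10 q of at least 5 and 14 to 16 with a library left out. Regions of 1 library numbered 27 at that q, 13 in lists of equal length, 141 from summits ± 100 bp and 67 to 82 with a library left out. At that q, regions of FS_Ia and not PS_Ia numbered 0. In lists of equal length there were 0 regions for PS_Ia and not PS_Ca, 1 for PS_Ca and not PS_Ia, 0 for FS_Ca and not FS_Ia, 0 for PS_Ia and not FS_Ia, 0 for FS_Ia and not PS_Ia, and 1 for PS_Ca and not FS_Ca. From summits ± 100 bp there were 5 for PS_Ia and not PS_Ca, 5 for PS_Ia and not FS_Ia, 2 for FS_Ia and not PS_Ia, 1 for PS_Ca and not FS_Ca, and 1 for FS_Ca and not PS_Ca. Without Bcl6, 0 regions were left for FS_Ca and not FS_Ia.

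With 1 library left out, which leaves 1 library in a genotype, the counts ran from 3 to 63 for PS_Ia and not PS_Ca, 0 to 13 for PS_Ca and not PS_Ia, 0 to 18 for FS_Ia and not FS_Ca, 1 to 33 for FS_Ca and not FS_Ia, 3 to 63 for PS_Ia and not FS_Ia, 1 to 11 for FS_Ia and not PS_Ia, 0 to 19 for PS_Ca and not FS_Ca and 0 to 32 for FS_Ca and not PS_Ca. Regions of all Ia and no Ca libraries, and of all PS and no FS libraries, ran from 0 to 1. The chromosome 16 level at a −log10 q of at least 5 was 0.860 in PS_Ca replicate 2, 1.03 in FS_Ia replicate 2 and 1.10 in FS_Ca replicate 2.

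The replicate numbers were not taken as pairs over the 4 genotypes: the correlation of same-numbered deviations was between -0.0690 and 0.0366 for 5 of the 6 genotype pairs. It was 0.127 for PS_Ia with PS_Ca, whose same-numbered libraries share a peak-name prefix, and the values within these prefix sets are given with the peak numbers. With the replicate number as a block, Ia minus Ca in the 6 windows was 13.25 and PS minus FS 12.25, with an exact two-sided sign-flip permutation p of 1 and 0.75 and a smallest possible p of 0.125. Neither the block nor the crossed pairing made a call. At summits of 3 to 5 fragments the absence of a peak in a short list does not show the absence of Rad21.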
